A study of Mus musculus with 16 samples.

Results

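The liver makes most of the proteins of blood clotting, and 10 of their genes were followed here: F2, F5, F7, F9, F10, F11, Fga, Fgb, Fgg and Proc. They were picked by name from a table of counts per gene. The table held all 10 among its 41079 genes, and all 10 passed the filter on low counts, which left 16742 genes for testing. Liver RNA came from 16 mice aged 20 to 22 months, kept on the C57BL/6J background. Each sex had 4 CRE- controls and 4 LKO mice. Every mouse carried Gcgr, the gene of the glucagon receptor, with loxP sites around several of its exons. LKO mice also carried a Cre recombinase under the albumin promoter, which is active in hepatocytes, and CRE- mice lacked it. Each LKO group was set against the CRE- group of its sex. Between 33268424 and 56488920 reads per library were counted on genes. The member with the fewest reads, F11, had between 488 and 2805 reads in a library.

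Clotting runs as a cascade in which inactive protease precursors, called zymogens, cut and activate each other on a cell surface. Factor VII starts it with tissue factor, factors XI, IX and X relay it, and factor V assists factor X in turning prothrombin, the product of F2, into thrombin. Thrombin then cuts fibrinogen, a protein of alpha, beta and gamma chains, into the fibrin of the clot, while protein C, the product of Proc, shuts the cascade off by destroying factor V and its relative factor VIII.

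Levels are given as CPM, the usual counts scaled to a common library total, with that total adjusted by TMM, a trimmed mean over genes. The targeted gene, Gcgr, stood at 190.4, 193, 127 and 189.6 CPM in the 4 male CRE- livers and 117, 136, 129.9 and 160.3 CPM in the 4 male LKO livers. In females it stood at 162, 208, 201 and 180.0 CPM in CRE- livers and 48.8, 132, 119 and 93.6 CPM in LKO livers. The female groups did not overlap, and the male groups did. In females its fold change on the log2 scale came to -0.93 (SE 0.25, adjusted p = 0.0443), and in males to -0.37 (SE 0.24, adjusted p = 0.671), by the quasi-likelihood test of edgeR with p adjusted by Benjamini-Hochberg. The female call depended on the fit, with an adjusted p of 0.00807 to 0.136 over 14 alternatives and a call in 4 of them. Its log2 fold change ranged from -1.11 to -0.42 over these, the latter with libraries scaled to hepatocyte markers, which raised the median of all genes from 0.04 to 0.69. The count covers the whole gene, exons outside the loxP sites included, so it does not measure the deletion itself, and groups are named as the labels give them.

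Markers of hepatocytes were read to check the tissue. All 12 hepatocyte markers in the table were detected in every library, and albumin RNA was the most abundant, with 41687 to 71962 CPM in female LKO livers and 90167 to 105500 CPM in female CRE- livers. Of the 12 markers, 12 had a log2 fold change below 0 in females, with a median of -0.53, and 6 had one below 0 in males, with a median of 0.01. The median of all genes tested was 0.04 in females and -0.01 in males. Serpina1b, a protease inhibitor gene, was the only one of them called, at -1.02 (SE 0.24, adjusted p = 0.0297) in females. In bulk tissue, fewer hepatocytes and less RNA per hepatocyte cannot be told apart.

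None of the 10 members was called in any comparison at an adjusted p under 0.05 by edgeR's quasi-likelihood test. In males, 0 of 10 were called, where 0.454% of all genes tested were, and 0 of 10 had an unadjusted p under 0.05, against 9.53% of all genes. In females, 0 of 10 were called, where 4.24% of all genes were, and 5 of 10 had an unadjusted p under 0.05, against 21.4% of all genes. These 5 were F2, F7, F9, F10 and Proc, all with lower values in LKO livers, a rule met by 9.14% of all genes. DESeq2 called 0 members in males, where it called 339 of all genes, and 4 in females, where it called 1816 of all genes. For the difference between the sexes, an interaction term, 0 of 10 were called and 0% of all genes, while 2 of 10 had an unadjusted p under 0.05, against 16% of all genes. DESeq2 called 0 members and 371 of all genes for the interaction. Over the alternatives the members with an unadjusted p under 0.05 numbered 0 to 1 in males, 1 to 6 in females and 0 to 2 for the interaction. The female count was 1 with hepatocyte-marker scaling and otherwise 4 to 6. With that scaling the member counted was Fga, higher in LKO livers at a log2 fold change of 0.80. The median of all genes was then 0.69. None of F2, F7, F9, F10 and Proc was counted with hepatocyte-marker scaling. The interaction count was 0 with that scaling and without any of male CRE- replicate 3, male LKO replicates 2 and 4, female CRE- replicate 4 and female LKO replicates 1 and 4.

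**Figure D1:**
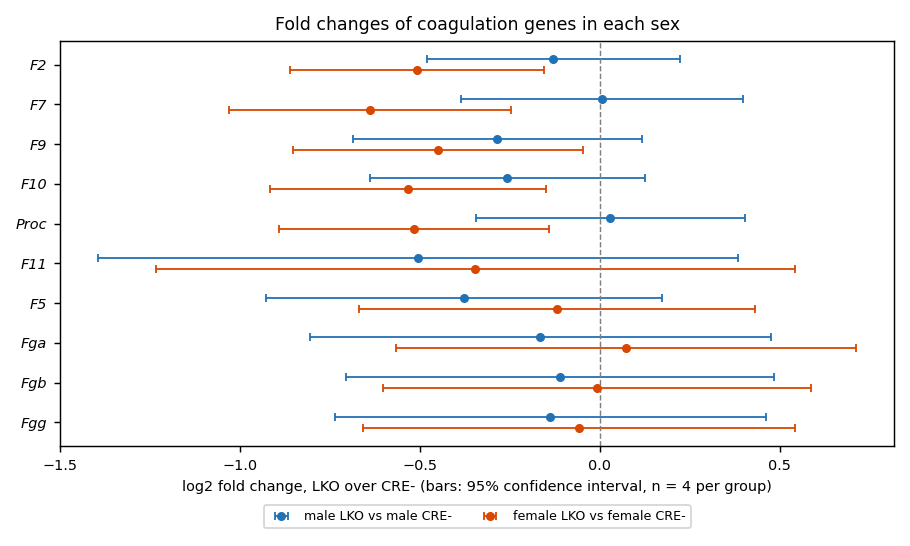
Log2 fold change of the 10 genes in LKO over CRE- livers for males (blue) and females (orange), with bars for the 95% confidence interval (n = 4 per group). The female intervals of F2, F7, F9, F10 and Proc lie below 0 with TMM scaling, whereas those of the fibrinogen chains span 0. With libraries scaled to hepatocyte markers the female log2 fold changes of F2, F9, F10 and Proc were between 0.10 and 0.15. The median of all genes was then 0.69. Relative to it these values were between -0.59 and -0.55, a subtraction that takes out any shift shared by all genes.

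The vitamin K-dependent zymogens F2, F7, F9 and F10, whose proteins carry carboxylated glutamates that bind calcium, are given first. F2, the prothrombin gene, was at 2290.1, 2074, 2133 and 2590 CPM in female CRE- livers and 1387, 1806, 1626 and 1573 CPM in female LKO livers. Every female LKO liver was below every female CRE- liver. In males F2 was at 1544, 1979, 1701 and 1870.3 CPM in CRE- livers and 1372, 1679, 1707 and 1732 CPM in LKO livers. The male groups overlapped, and LKO replicate 1 was the lowest of the 8. The log2 fold change was -0.51 (SE 0.17, adjusted p = 0.0886) in females and -0.13 (SE 0.17, adjusted p = 0.839) in males, and the interaction was -0.38 (SE 0.24, adjusted p = 0.418). The male value ranged from -0.20 without CRE- replicate 1 to -0.0701 without CRE- replicate 2.

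F7 encodes the protease that binds tissue factor and starts the cascade. It was at 156, 116, 125 and 164 CPM in female CRE- livers and 68.5, 104, 108 and 79.7 CPM in female LKO livers, so the groups did not overlap. LKO replicates 1 and 4 were the lowest of these 8 livers. Male livers had 105, 97.2, 84.0 and 111 CPM without Cre and 78.4, 102, 105 and 113 CPM with it, and these overlapped throughout. The log2 fold change was -0.64 (SE 0.19, adjusted p = 0.0608) in females, which is 0.643-fold (95% confidence interval 0.490 to 0.844). It was 0.01 (SE 0.18, adjusted p = 0.998) in males, and between -0.0820 and 0.0890 with a male library left out. The interaction was -0.64 (SE 0.26, adjusted p = 0.261), with a 95% confidence interval of -1.20 to -0.09, so a difference between the sexes did not pass the test over all genes. With hepatocyte-marker scaling the F7 interaction was -0.0152, where the median interaction of all genes was 0.73, and -0.74 relative to that median.

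F10, the gene of the protease that makes thrombin, was at 679, 550.3, 579 and 861 CPM in female CRE- livers and 436, 504, 431 and 476 CPM in female LKO livers. Female CRE- replicate 4 stood above the other livers, and the female groups did not overlap. In males the values were 369, 485, 507 and 532 CPM in CRE- livers and 338, 384, 428 and 435 CPM in LKO livers, with CRE- replicate 1 inside the LKO range. The log2 fold change was -0.53 (SE 0.18, adjusted p = 0.0986) in females and -0.26 (SE 0.18, adjusted p = 0.691) in males. The interaction was -0.27 (SE 0.26, adjusted p = 0.591), and -0.0882 without female CRE- replicate 4. F7 and F10 lie next to each other on chromosome 8 of GRCm39, with 1498 bases between the end of F7 and the start of F10, and Proz lies 3906 bases after F10. Proz, which encodes protein Z, a cofactor of an inhibitor of factor X, had a female log2 fold change of -0.52 (SE 0.16, adjusted p = 0.0762) and a male one of -0.39 (SE 0.16, adjusted p = 0.440).

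F9, the gene on the X chromosome that is mutated in haemophilia B, was at 218, 206, 191 and 186 CPM in female CRE- livers and 112, 167, 144 and 162 CPM in female LKO livers. The lowest CRE- liver was above the highest LKO liver. Male values were 159.9, 219.8, 192 and 148 CPM in CRE- livers and 104, 168, 170.0 and 148 CPM in LKO livers. The male groups overlapped, with LKO replicate 1 the lowest. F9 differed on the log2 scale by -0.45 (SE 0.19, adjusted p = 0.179) in females and -0.28 (SE 0.19, adjusted p = 0.673) in males, with an interaction of -0.17 (SE 0.27, adjusted p = 0.784). The male value was -0.16 without male LKO replicate 1, and the interaction ranged from -0.28 without male CRE- replicate 2 to -0.0337 without female LKO replicate 1.

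Proc encodes the zymogen of the anticoagulant protein C, which is also vitamin K-dependent. It was at 514, 518, 544 and 581 CPM in female CRE- livers and 329, 471, 414 and 295 CPM in female LKO livers. The CRE- livers lay close together, and LKO replicates 1 and 4 were the lowest, with no overlap between the groups. Male livers had 484, 552, 480.1 and 619.8 CPM in the CRE- group and 449.6, 563, 593 and 575 CPM in the LKO group, which overlapped. The log2 fold change was -0.52 (SE 0.18, adjusted p = 0.100) in females and 0.03 (SE 0.18, adjusted p = 0.973) in males, and the interaction was -0.55 (SE 0.25, adjusted p = 0.304). With a male library left out, the male value ranged from -0.0330 without CRE- replicate 3 to 0.11 without CRE- replicate 4. It was also below 0 without CRE- replicate 1, LKO replicate 3 or LKO replicate 4. The procoagulant F2, F7, F9 and F10 and the anticoagulant Proc thus had negative female values of similar size with TMM, whereas all but F7 were above 0 with hepatocyte-marker scaling, which shifted all genes, as described below.

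In all, 5 of 10 members had female groups that did not overlap and were lower in LKO livers, against 6.42% of all genes tested. In males 0 of 10 had groups without overlap, against 6.49% of all genes. The calls for females depended on the fit. DESeq2 called F2 (adjusted p = 0.00853), F7 (0.0216), Proc (0.0308) and F10 (0.0347), while edgeR called F7 (adjusted p = 0.0438) and Proc (0.0447) once female LKO replicate 2 was left out. Of all genes, these fits called 1816 and 1310, against 710. Over 14 alternatives to the edgeR fit, the adjusted p ranged from 0.00853 to 0.557 for F2, from 0.0216 to 0.855 for F7, from 0.0347 to 0.632 for F10 and from 0.0308 to 0.645 for Proc. Scaling libraries to the 12 hepatocyte markers in place of TMM, an alternative chosen after seeing the data, raised the median female log2 fold change of all genes to 0.69. On that scale the female values were 0.12 for F2, -0.04 for F7, 0.15 for F9, 0.12 for F10 and 0.10 for Proc. Relative to the median of all genes they were -0.57, -0.74, -0.55, -0.57 and -0.59. Subtracting the median takes out a shift shared by all genes, so values relative to it are not a separate check on those with TMM.

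F11 and F5 differed from these in their spread. F11, the gene of the factor XI zymogen, was at 62.2, 38.7, 33.5 and 44.9 CPM in female CRE- livers and 12.3, 31.0, 22.3 and 75.7 CPM in female LKO livers. LKO replicates 1 and 4 were the lowest and the highest of all 16 livers. Male values were 40.9, 29.2, 43.3 and 43.6 CPM in CRE- livers and 13.7, 37.7, 33.1 and 26.0 CPM in LKO livers, and overlapped. For F11 the log2 values came to -0.34 (SE 0.42, adjusted p = 0.692) in females and -0.51 (SE 0.42, adjusted p = 0.740) in males. Without LKO replicate 4 the female value was -1.03, and without LKO replicate 1 it was -0.05, and the male value was -0.30 without male LKO replicate 1. With hepatocyte-marker scaling the female value of F11 was 0.19, or -0.50 relative to the median of all genes.

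F5, the cofactor of factor X, ranged from 312 to 523 CPM in female CRE- livers and from 346 to 481 CPM in female LKO livers. Male CRE- livers held both extremes of the 16, with 499.5, 516, 850.3 and 298 CPM, and male LKO livers lay at 367 to 481 CPM. As a log2 fold change, F5 had -0.12 (SE 0.26, adjusted p = 0.845) in females and -0.38 (SE 0.26, adjusted p = 0.686) in males. The male value was -0.09 without CRE- replicate 3 and -0.58 without CRE- replicate 4. The female value was -0.0353 without CRE- replicate 1, -0.24 without CRE- replicate 4 and 0.54 with hepatocyte-marker scaling, or -0.16 relative to the median of all genes. A microRNA gene, Mir12178, overlaps the span of F5 on the same strand. Whether it overlaps exons of F5, and how reads on it were counted, was not tested.

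**Figure D2:**
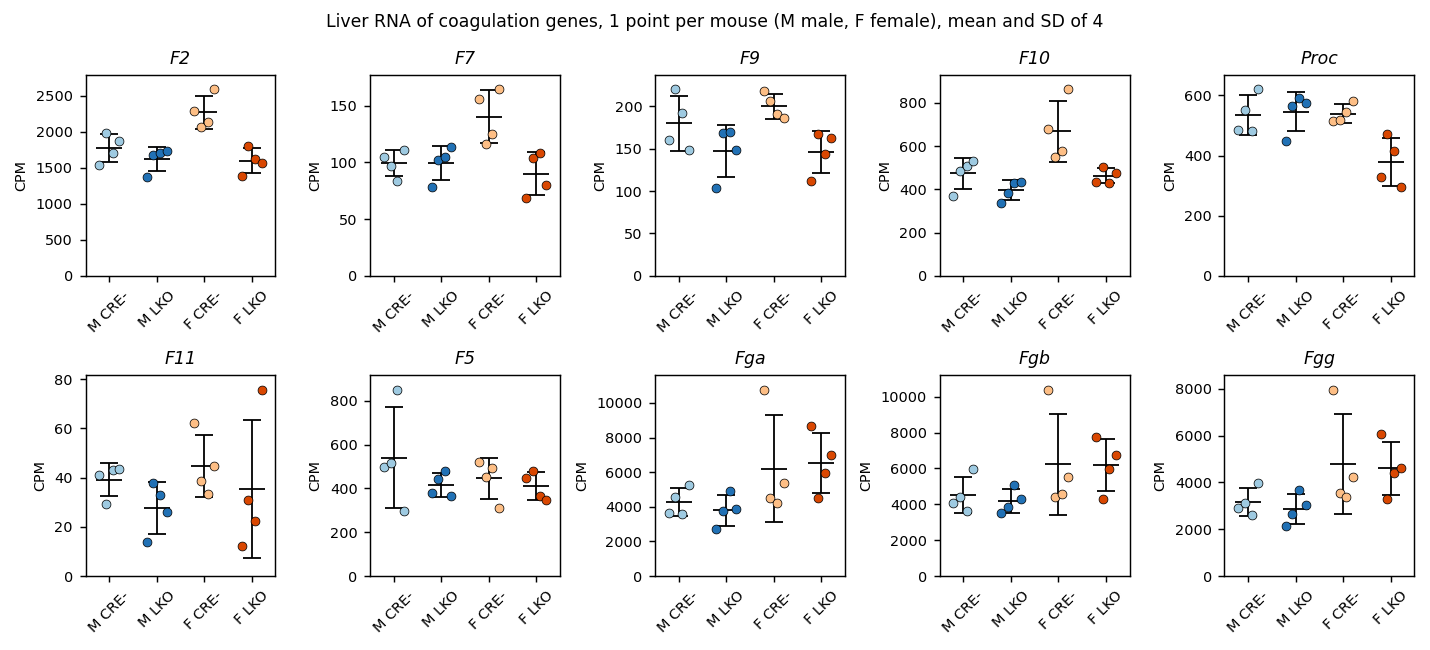
CPM of each of the 10 genes in 16 livers, in 4 groups of 4 mice (M, male; F, female), with 1 point per mouse and bars for the mean and SD. In females the points of F2, F7, F9, F10 and Proc do not overlap between CRE- and LKO livers, while female CRE- replicate 1 stands far above the other CRE- livers for Fga, Fgb and Fgg, at 10760 CPM for Fga.

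The fibrinogen genes Fga, Fgb and Fgg, which encode the alpha, beta and gamma chains, were at higher levels per length than the other members. Fga was at 10760, 4483, 4247 and 5363 CPM in female CRE- livers and 8673, 4531, 5959.9 and 6986 CPM in female LKO livers. Female CRE- replicate 1 was the highest of all 16 livers, at 2.29-fold the mean of the other female controls, and the groups overlapped. In males Fga was at 3636, 4574, 3598 and 5279.6 CPM in CRE- livers and 2705, 3744, 4905 and 3890.2 CPM in LKO livers, which overlapped. Fgb ranged from 4419.7 to 10388 CPM in female CRE- livers and 4317 to 7781 CPM in female LKO livers, and Fgg from 3379 to 7954 CPM and 3286 to 6077 CPM. The same liver, female CRE- replicate 1, was the highest of the 16 for both, at 2.14-fold the mean of the other female controls for Fgb and 2.13-fold for Fgg. Fgb and Fgg ranged from 3637 to 5967 CPM and 2622 to 3973 CPM in male CRE- livers, and from 3528 to 5065 CPM and 2161 to 3683 CPM in male LKO livers.

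Female log2 fold changes were 0.07 (SE 0.30, adjusted p = 0.922) for Fga, -0.01 (SE 0.28, adjusted p = 0.993) for Fgb and -0.06 (SE 0.28, adjusted p = 0.937) for Fgg. In males they were -0.16 (SE 0.30, adjusted p = 0.892), -0.11 (SE 0.28, adjusted p = 0.927) and -0.14 (SE 0.28, adjusted p = 0.909). The interaction of Fga was 0.24 (SE 0.43, adjusted p = 0.808), and ranged from 0.0917 without female LKO replicate 1 to 0.64 without female CRE- replicate 1. With a male library left out, the male values ranged from -0.31 to -0.0452 for Fga, from -0.22 to 0.0539 for Fgb and from -0.28 to -0.00699 for Fgg. With TMM, no chain differed beyond the spread between mice in either sex. The 95% confidence interval of the female fold of Fga was 0.675 to 1.64, so with 4 mice per group differences within that range cannot be told apart from none. Without female CRE- replicate 1 the female log2 values were 0.48 for Fga, 0.35 for Fgb and 0.30 for Fgg, still not called. With hepatocyte-marker scaling they were 0.80, 0.71 and 0.67, also not called, with 0.11, 0.01 and -0.03 relative to the median of all genes. The 3 chains together took 2.77% of all counts in that liver, between 1.10% and 1.22% in the other female controls, and between 1.23% and 2.55% in female LKO livers.

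The proportions of the chains to each other were compared per length. The ratio of Fgb to Fga was 1.91, 1.95, 2.13 and 2.04 in female CRE- livers and 1.77, 1.88, 1.98 and 1.90 in female LKO livers. In males it was 1.90 to 2.23 in CRE- livers and 2.58, 2.05, 2.04 and 2.19 in LKO livers, with LKO replicate 1 the highest of the 16. The ratio of Fgg to Fga was 1.18, 1.27, 1.27 and 1.26 in female CRE- livers and 1.12, 1.16, 1.18 and 1.05 in female LKO livers, with only 1 LKO liver, replicate 3, above the lowest control. Male livers had Fgg to Fga ratios of 1.10 to 1.28 without Cre and 1.12 to 1.27 with it. Fgg to Fgb lay between 0.494 and 0.587 in males and between 0.553 and 0.652 in females. The female log2 difference in the Fgg to Fga ratio was -0.14 (exact two-sided permutation p = 0.0571, adjusted p = 0.343, n = 4 per group). With 70 arrangements of 8 mice, the smallest p the test can give is 0.0286. The p of 0.0571 was the lowest of 6 over 3 ratios and both sexes, and the others lay between 0.143 and 0.686.

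Across the 16 livers the chain RNAs moved together. On log2 CPM, r (Pearson) was 0.975 and rho (Spearman) 0.968 for Fga with Fgb, 0.986 and 0.971 for Fga with Fgg, and 0.981 and 0.991 for Fgb with Fgg. Each had a permutation p of 1e-05, the smallest that 100000 resamples can give, and an adjusted p of 1e-05 over the 3 pairs. Resampling moved livers across groups, so group differences enter these p and those within a sex below. With the mean of each group taken out, r was 0.969, 0.986 and 0.981 for the same pairs. Without the 2 livers farthest from the median, female CRE- replicate 1 and female LKO replicate 1, r was 0.943, 0.968 and 0.952. Within males r was 0.899, 0.964 and 0.957 over 8 livers, with permutation p = 0.00261, 0.00014 and 4e-05. Within females r was 0.989, 0.983 and 0.988 over 8 livers, with permutation p = 0.00019, 0.00016 and 9e-05. Library scaling is shared by the genes of a library and enters these values.

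**Figure D3:**
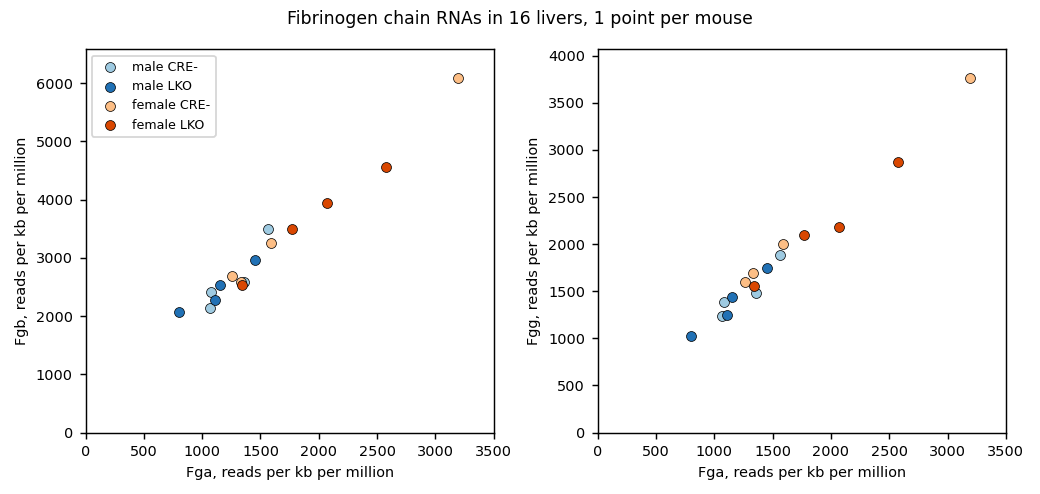
Fgb (left) and Fgg (right) against Fga in 16 livers, in CPM per kilobase of gene length (RPKM), with 1 point per mouse coloured by group. The points fall along a line in both panels, with r between 0.975 and 0.986 on log2 CPM, and female CRE- replicate 1 lies at the upper end.

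The genes most like the fibrinogen chains in their pattern were found by Pearson r over the 16 libraries with the mean log2 CPM of the chains, among 13069 other genes with a mean of at least 1 CPM. The highest were Litaf (0.887), Serpina10 (0.881), Mfsd13a (0.871), Map7d1 (0.850) and Itih4 (0.842), and the lowest were Map2k6 (-0.895) and Degs1l (-0.856). Serpina10 encodes the protein Z-dependent inhibitor of factor X, and Itih4 an acute-phase plasma protein. For the mean of the zymogens F2, F7, F9, F10, F11 and Proc the highest were Cpn1 (0.924), Gjb1 (0.922), Serpind1 (0.911), Dnajb2 (0.907) and Plg (0.897). Serpind1 encodes heparin cofactor II, an inhibitor of thrombin, and Plg encodes plasminogen, the precursor of the protease that dissolves fibrin. These are the extremes among many genes, given as a description.

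Levels between genes were compared per length, as CPM per kilobase (RPKM), over the 8 CRE- livers. The order was Fgb at 3154 ± 1267 RPKM (SD, n = 8), Fgg at 1882 ± 801, Fga at 1556 ± 689 and F2 at 811 ± 133. Then came Proc at 242 ± 21.6 RPKM, F10 at 212 ± 54.4, F9 at 65.8 ± 8.88, F5 at 60.6 ± 20.9, F7 at 43.4 ± 10.1 and F11 at 14.8 ± 3.43. Each gene was above the next in 8 of 8 control livers, except that Proc was above F10, F9 above F5 and F5 above F7 in 6 of 8. For these neighbours the order turned between the sexes or between livers. Proc was at 241 and F10 at 176 RPKM in males and at 244 and 248 in females, and F9 at 62.4 and F5 at 66.5 in males and at 69.3 and 54.8 in females. Among all 16742 genes tested, Fgb ranked 21 and F11 ranked 2942 by this level.

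Among controls, the female livers were compared with the male livers, which uses the same CRE- mice as the genotype comparisons. Here 0 of 10 members were called, where 0.920% of all genes tested were, and DESeq2 called 0 members and 509 of all genes. Of the 10, 3 had an unadjusted p under 0.05, against 12.7% of all genes, and these were F2, F7 and F10. This count ranged from 0 to 4 over the alternatives. It was 0 with hepatocyte-marker scaling and without female CRE- replicate 4, where F10 was at 0.31, 1 without male CRE- replicate 1 or 3, and 4 with DESeq2 and without female CRE- replicate 2 or 3. The same 3 genes had groups that did not overlap and were higher in females, a rule met by 4.37% of all genes. Their log2 differences, female over male, were 0.36 (SE 0.17, adjusted p = 0.388) for F2, 0.50 (SE 0.19, adjusted p = 0.271) for F7 and 0.50 (SE 0.18, adjusted p = 0.264) for F10. With hepatocyte-marker scaling they were 0.01, 0.15 and 0.14, with a median of all genes of -0.36, and 0.37, 0.51 and 0.50 relative to that median. For the fibrinogen chains the difference was 0.54 (SE 0.30, adjusted p = 0.472) for Fga, 0.46 (SE 0.28, adjusted p = 0.505) for Fgb and 0.60 (SE 0.28, adjusted p = 0.398) for Fgg, and 0.14, 0.10 and 0.24 without female CRE- replicate 1. Proc differed by 0.01, F9 by 0.15, F11 by 0.19 and F5 by -0.28. With a control left out these ranged from -0.0609 to 0.0964, from 0.0704 to 0.27, from -0.00496 to 0.31 and from -0.48 to 0.0121. Lists described below also differed between the control sexes. Of 12 hepatocyte markers 11 were above 0, with a median of 0.33, and of 19 acute-phase genes 17 were, with a median of 0.59. All 5 neutrophil markers tested were below 0, with a median of -1.56, and all 8 platelet and megakaryocyte markers, with a median of -1.46. None of these genes was called by edgeR in this comparison.

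The fibrinogen genes form a cluster of 42140 bases on chromosome 3 of GRCm39, with Fgg at 82915031 to 82922363 and Fga at 82933460 to 82940934 on the plus strand, and Fgb at 82949553 to 82957170 on the minus strand. The next gene after Fgb, Plrg1, had a female log2 fold change of -0.24 (adjusted p = 0.366). Since the 3 RNAs varied together, the 250 bases before each gene's start are shown, from RefSeq promoter sequences of the build GRCm38.p6 that matched GRCm39 exactly and once on this chromosome. The windows are chr3:82933210-82933459 (plus strand), chr3:82957171-82957420 (minus strand) and chr3:82914781-82915030 (plus strand). Each is written from 5′ to 3′ on the strand of its gene. Capitals mark matches, on either strand, to CTGGGA (the core of an interleukin 6 response element), TTCNNNGAA (the STAT motif) and TTGCNNAA (a C/EBP motif).
Fga: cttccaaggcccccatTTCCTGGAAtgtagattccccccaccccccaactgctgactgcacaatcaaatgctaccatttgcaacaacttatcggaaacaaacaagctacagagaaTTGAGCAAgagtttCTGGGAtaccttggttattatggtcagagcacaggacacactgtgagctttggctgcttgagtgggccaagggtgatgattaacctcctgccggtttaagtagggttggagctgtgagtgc
Fgb: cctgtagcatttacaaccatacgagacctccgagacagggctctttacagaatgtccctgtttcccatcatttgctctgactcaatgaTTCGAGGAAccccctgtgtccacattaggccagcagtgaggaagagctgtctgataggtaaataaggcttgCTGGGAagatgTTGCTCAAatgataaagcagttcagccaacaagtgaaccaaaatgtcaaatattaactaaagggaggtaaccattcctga
Fgg: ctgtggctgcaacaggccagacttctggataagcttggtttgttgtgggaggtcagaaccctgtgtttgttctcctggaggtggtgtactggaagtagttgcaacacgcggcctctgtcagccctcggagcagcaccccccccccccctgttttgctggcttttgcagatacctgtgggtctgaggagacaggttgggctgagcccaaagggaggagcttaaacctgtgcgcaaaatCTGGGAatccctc

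CTGGGA was found on the gene's strand in all 3 windows, 116 to 121 bases before the start of Fga, 86 to 91 before that of Fgb and 8 to 13 before that of Fgg. It was present in 27.0% of the 32851 promoter windows of the same length. Fga and Fgb each also held TTCNNNGAA and TTGCNNAA, found in 7.02% and 9.56% of all windows, while Fgg held only CTGGGA. In Fga the TTGCNNAA match was on the opposite strand, 128 to 135 bases before the start, and in Fgb on the gene's strand, 73 to 80 before it. No matches of different motifs overlapped in these windows. Among 9 members with a window searched, CTGGGA was also found for F9 and F10, TTCNNNGAA for F9 and TTGCNNAA for F9 and F11; in F9 the CTGGGA match lay inside the TTCNNNGAA match on the other strand. Such matches describe the letters and do not show that a factor binds.

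Other genes of clotting were read from lists of contact and procoagulant factors, inhibitors, processing enzymes and thrombin receptors. Values of these and the following lists are with TMM and were not refitted with hepatocyte-marker scaling, under which the female median of all genes was 0.69. Calls in every list stand against 4.24% of all genes in females, 0.454% in males and 0.920% between control sexes. None of the genes of these lists was called in males. Of 9 contact and procoagulant genes, 1 was called in females, where 4.24% of all genes were, namely Vwf, the gene of von Willebrand factor that endothelium and platelets make, at 1.15 (SE 0.28, adjusted p = 0.0358), with a list median of -0.08 in females and -0.03 in males. Klkb1, which encodes prekallikrein and lies 4632 bases from F11, had a female value of -0.51 (SE 0.26, adjusted p = 0.258). Of 11 inhibitor genes tested, 1 was called in females, against the same 4.24% of all genes, namely Serpind1, at -0.71 (SE 0.19, adjusted p = 0.0483), with list medians of -0.15 in females and -0.32 in males. Serpind1 was at 663 to 761 CPM in female CRE- livers and 298 to 538 CPM in female LKO livers.

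The list of 6 genes for the vitamin K cycle, processing and export covers steps that clotting factors pass before secretion. Of these, 6 had female log2 fold changes below 0, with a median of -0.37, and 3 had male ones below 0, with a median of 0.02. Lman1, which encodes a receptor that carries factor V and factor VIII out of the endoplasmic reticulum, was called in females at -0.66 (SE 0.18, adjusted p = 0.0483). It was at 216 to 239 CPM in female CRE- livers and 133 to 148 CPM in female LKO livers, without overlap. Its partner Mcfd2 had -0.46 (SE 0.18, adjusted p = 0.137), and Ggcx, the carboxylase that uses vitamin K, had -0.49 (SE 0.21, adjusted p = 0.179). Of 3 thrombin receptor genes tested, 0 were called in either genotype comparison, with medians of 0.52 in females and -0.35 in males, and F2r was called between control sexes at -1.28 (SE 0.28, adjusted p = 0.0399).

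Fibrinogen is also an acute-phase protein, made in larger amounts in inflammation, so other acute-phase genes and their regulators were set beside it. Of 19 acute-phase genes, 0 were called in either genotype comparison by edgeR's quasi-likelihood test. At an unadjusted p under 0.05, 8 were higher and 1 lower in female LKO livers, and 0 were higher and 3 lower in male LKO livers, where 21.4% of all genes in females and 9.53% in males had such a p in either direction. The list median was 0.81 in females and -0.41 in males. The gene with the smallest p in males was Orm1, at -1.79 (SE 0.56, adjusted p = 0.245), and in females Orm2, at 2.61 (SE 0.92, adjusted p = 0.108), while Orm2 had -2.60 (SE 0.92, adjusted p = 0.333) in males. The most abundant gene, Hpx, was at 3238 to 8228 CPM in female CRE- livers and 4890.2 to 17476 CPM in female LKO livers. The summed level of the list was 33587, 13733, 15575 and 23270 CPM in female CRE- livers and 34439, 23122, 19945 and 57492 CPM in female LKO livers. Female CRE- replicate 1, the liver with the highest fibrinogen, also had the highest sum of the 8 CRE- livers, while female LKO replicate 4 had the highest of the 16.

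Of 8 genes of interleukin 6 and STAT3 signalling tested, Lifr, a receptor of leukemia inhibitory factor, was called lower in females at -1.03 (SE 0.22, adjusted p = 0.0213), and the interleukin 1 receptor Il1r1 was called higher at 1.70 (SE 0.38, adjusted p = 0.0250). The list median was 0.42 in females and -0.42 in males.

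Markers of other cell types were read in the same livers. Summed over 12 hepatocyte markers, the level was 138440, 139710, 145310 and 165490 CPM in female CRE- livers and 64727, 115530, 111070 and 89360 CPM in female LKO livers, without overlap, and 87076 to 125020 and 84289 to 113740 CPM in males. The 6 Kupffer cell markers, of which Cd5l was the most abundant, all had female log2 fold changes above 0, with a median of 1.64 against 0.08 in males, and Adgre1 was called at 2.15 (SE 0.57, adjusted p = 0.0451). Their sum was 546, 420.1, 460.2 and 767 CPM in female CRE- livers and 3026, 708, 1592 and 881 CPM in female LKO livers, with LKO replicate 1 the highest. All 6 markers of recruited macrophages were above 0 in females, with a median of 1.83 against -0.03 in males, and Itgam (adjusted p = 0.0369) and Trem2 (adjusted p = 0.0249) were called. Their sum, led by Lyz2, was 245, 151, 174 and 302 CPM in female CRE- livers and 553, 369, 638 and 554 CPM in female LKO livers.

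Of 5 neutrophil markers tested, 5 were above 0 in females, with a median of 3.17, and Retnlg (2.86) and Mpo (5.23) were called, while 5 were below 0 in males, with a median of -2.23. Their sum with Ly6g added, led by S100a9, was 35.7, 19.2, 16.4 and 16.1 CPM in female CRE- livers. In female LKO livers it was 119.5, 42.3, 62.3 and 531 CPM. It was 76.8, 19.6, 15.9 and 141.5 CPM in male CRE- livers and 26.0, 15.8, 12.4 and 11.9 CPM in male LKO livers. Male CRE- replicates 1 and 4 stood above the other male livers, and replicates 2 and 3 lay within the LKO range. In males 5 of the markers were lower at an unadjusted p under 0.05, a p that 9.53% of all genes had in either direction. Ly6g, which the low-count filter left out, was at 0 in all 4 male LKO livers and at 0.151 to 1.91 CPM in female LKO livers. All 8 platelet and megakaryocyte markers were above 0 in females, with a median of 1.41 and Pf4 called at 2.99 (SE 0.77, adjusted p = 0.0412). In males 7 of 8 were below 0, with a median of -1.56. Of these, 2 were lower at an unadjusted p under 0.05, against the same 9.53% of all genes. The most abundant was Pf4 in female LKO livers and Itga2b in female CRE- livers. Their sum was 8.52, 5.04, 5.58 and 10.5 CPM in female CRE- livers and 44.4, 8.78, 20.4 and 30.8 CPM in female LKO livers. Of the 2 proliferation markers Top2a was called, at 2.45 (SE 0.63, adjusted p = 0.0397).

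The remaining lists held no called gene in either genotype comparison. Their female medians were -0.11 for 8 sinusoidal endothelium markers, -0.19 for 6 stellate cell markers, 0.24 for 6 cholangiocyte markers, 0.05 for 6 T and NK cell markers, 0.59 for 4 B and plasma cell markers and 0.57 for 6 erythroid markers. Krt19, a cholangiocyte keratin, was called between control sexes at 1.66 (SE 0.35, adjusted p = 0.0300). By their mean in each group, the most abundant genes were Stab2 or Clec4g (sinusoidal endothelium), Dcn (stellate cell), Spp1 (cholangiocyte), Nkg7 or Cd3g (T and NK cell), Jchain (B and plasma cell) and Hbb-bs (erythroid). All 6 erythroid markers were below 0 in males, with a median of -1.28. Of these, 5 were lower at an unadjusted p under 0.05, against 9.53% of all genes in either direction. The part of hepatocyte, macrophage, neutrophil and platelet RNA in the female values of F2, F7, F9, F10 and Proc was not tested beyond the scaling to hepatocyte markers given above.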

How the data were processed

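The authors sequenced poly-A selected liver RNA of 16 mice as paired reads, aligned it with STAR 2.7.1a to GRCm39 and counted reads per gene with featureCounts of Subread 2.0.6. The deposited values are the raw count of reads on each gene. Counting used the reverse-strand setting, while the library description names no step that marks the strand, and it counted reads and not pairs. Genes were taken by exact symbol. Members and lists were chosen with earlier results of these data known. Tests used edgeR 4.0.16 in R 4.3.3, with limma 3.58.1, as a joint quasi-likelihood fit of 4 groups after its low-count filter and TMM scaling, and an adjusted p under 0.05 was a call. Groups without overlap are those in which every value of one lies above every value of the other.

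Alternatives were DESeq2 1.42.0, RLE scaling, no filter, a replicate block, each sex alone, each library left out and, added after seeing the data, scaling to 12 hepatocyte markers. Ratios were compared by exact permutation and correlations by 100000 resamples. Lists were contact and procoagulant factors, anticoagulants and inhibitors, vitamin K cycle with processing and export, thrombin receptors, acute phase, IL-6 and STAT3 signalling and markers of 12 cell types or states, and 1 further list is not reported here. The steps were tested on simulated data. Promoter sequences came from a RefSeq promoter table. The fit was not given cell proportions, and protein levels and clotting times were not analysed here.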

Additional observations from a re-analysis of the deposited data

Results flagged for a closer look

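Of 44 groups of 4 mice, formed by the 10 members and Gcgr in 4 groups each, 2 held a liver far from the others by Dixon's test on CPM, where chance alone marks about 1 in 20. For F2, male LKO replicate 1 was the lowest of its group at 1371.7 CPM, against 1679, 1707 and 1732 CPM in the other livers. For Gcgr, male CRE- replicate 3 was the lowest of its group at 127 CPM, against 190.4, 193 and 189.6 CPM. Whether either value reflects the animal or the library was not tested, and both livers were kept.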

How the results depend on the processing

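With 4 mice per group, and counts of 488 to 2805 reads for the rarest member, small changes were not detectable. Members called were 0 in males, between control sexes and for the interaction in every setting, and in females 4 with DESeq2, 0 to 2 with a library left out and 0 otherwise. Of all genes, DESeq2 called 339 in males, 1816 in females, 371 for the interaction and 509 between control sexes, against 76, 710, 0 and 154. Each sex alone gave 119 in females. The interaction gave 12 calls without the filter and 12 with hepatocyte-marker scaling, which was chosen after seeing the data and gave 4374 calls in females. With a library left out, calls were 26 to 49 in males, 87 to 1310 in females, 0 to 14 for the interaction and 68 to 149 between control sexes. The male value of F7, 0.01, was -0.00777 with DESeq2, -0.00773 with RLE, -0.00518 without the filter, -0.0133 with males alone and -0.0275 with hepatocyte-marker scaling. That scaling turned female values to 0.12 for F2, 0.54 for F5, 0.15 for F9, 0.12 for F10, 0.19 for F11, 0.71 for Fgb, 0.67 for Fgg and 0.10 for Proc. Interactions came to 0.28 for F2, 0.48 for F9, 0.41 for F10 and 0.10 for Proc with it, and control sex differences to -0.20 for F9, -0.17 for F11 and -0.33 for Proc. It shifted all genes, with medians of 0.69 in females, 0.73 for the interaction and -0.36 between control sexes. Relative to these the interactions were -0.45, -0.25, -0.31 and -0.63, and the control sex differences 0.16, 0.20 and 0.0330. Subtracting the median takes out a shift shared by all genes, so these values are not a separate check on those with TMM. With a library left out, values ranged in males from -0.0820 to 0.0890 for F7, -0.0330 to 0.11 for Proc and -0.22 to 0.0539 for Fgb, and in females from -0.0794 to 0.48 for Fga, -0.14 to 0.35 for Fgb and -0.21 to 0.30 for Fgg. Interactions ranged from -0.0275 to 0.46 for F5, -0.51 to 0.47 for F11, -0.0622 to 0.46 for Fgb and -0.0624 to 0.44 for Fgg. Control sex differences ranged from -0.0609 to 0.0964 for Proc, -0.48 to 0.0121 for F5 and -0.00496 to 0.31 for F11. In males the log2 difference in the Fgg to Fga ratio ranged from -0.00685 to 0.0699. That in Fgg to Fgb ranged from -0.0813 to 0.00119. In females the Fgg to Fga difference ranged from -0.17 to -0.11. Leaving out CRE- replicate 1 gave -0.17 with an exact permutation p of 0.0286. This p is the smallest the test can give with that mouse left out, and it was not adjusted over the libraries left out. A block on replicate number called 1244 genes and 0 members in females, and turned F7 in males to -0.00068, Fgb in females to 0.0156 and the F11 interaction to -0.0179. Within a sex, libraries of the same number in the block correlated at 0.170, 0.170, 0.144 and -0.013 in males and 0.173, 0.105, 0.117 and 0.0281 in females, not always their best match, so numbers were not taken as pairs. All other members kept their direction and their side of the threshold, and the cause of each turn was not tested.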
